A study of Mus musculus with 6 samples.

Results

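The IL-6 family transcripts described here are 10 genes, chosen by name: the ligands Il6, Il11, Lif and Clcf1, the receptor chains Il6ra, Il6st, Lifr and Osmr, the transcription factor Stat3 and the feedback inhibitor Socs3. Each name matched 1 row of the 54532 genes listed in every count file. All libraries are of YAMC, a mouse cell line of wild-type genotype (WT) labelled as colonic epithelium of a young adult. Its growth is conditional: the H-2Kb promoter, which interferon-gamma induces, drives the tsA58 form of SV40 large T antigen, a thermolabile protein, and cells of both groups were grown at 33 °C with interferon-gamma. The 3 treated libraries came from cells given 2'-fucosyllactose (2'-FL), a fucosylated milk sugar, for 6 h at a dose of 20 µg/ml; the 3 control libraries from untreated cells for which the labels give no time. The question put by the design text is whether 2'-FL acts directly on intestinal epithelial cells to protect them in adult colitis.

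IL-6 family cytokines share the signal-transducing receptor chain gp130, the product of Il6st. IL-6 and IL-11 first bind their own alpha chains, whereas LIF joins gp130 to LIFR and oncostatin M joins it to OSMR. Kinases of the JAK family attached to these chains phosphorylate STAT3, and STAT3 induces SOCS3, which binds gp130 and dampens the signal. In the intestine the family is known for its part in inflammation and in epithelial repair after injury.

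Total counts ranged from 19978583 to 25251187 per library, and 14129 genes were abundant enough to be tested. The 2'-FL replicate 2 stood farthest from the rest on the first principal component, which held 27.0% of the variance of the 1000 most variable genes, and control replicate 1 on the second (22.4%). Of 9 epithelial markers, 6 averaged under 1 CPM (counts scaled to library size by TMM), among them Epcam and Cdh1, and Cdx1 and Cdx2 had no count, while the keratins Krt8 and Krt19 stood at 308 ± 51.0 and 393 ± 52.9 CPM (SD, n = 6). All 4 mesothelial markers averaged over 10 CPM, with Upk3b and Msln at 1792 ± 77.0 and 787 ± 25.2 CPM (SD, n = 6), as did 6 of 8 fibroblast markers, with Col1a1 at 3555 ± 413 and Col3a1 at 2695 ± 242 CPM (SD, n = 6). Several defining transcripts of the labelled cell type, colonic epithelium, were thus at or near 0. Leukocyte markers summed to between 35.3 and 39.8 CPM with 2'-FL and between 32.4 and 39.4 CPM in controls, mostly from Cd68 and Cd14, with 4 counts of Ptprc in all, and the T and B cell markers to at most 0.303 CPM in any library. Endothelial markers summed to 15.5 to 18.9 CPM with 2'-FL and 13.2 to 19.7 CPM in controls, mostly from Tek and Kdr. In bulk RNA, fewer cells of a type and less RNA per cell cannot be told apart.

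Of the 9 tested members, 1 had groups that did not overlap, Il6, which was lower with 2'-FL; of all tested genes, 13.1% had groups that did not overlap in either direction and 6.31% were lower in this way, so this count is near the background. By edgeR's quasi-likelihood test with Benjamini-Hochberg adjustment, 0 of the 9 tested members passed an adjusted p of 0.05, against 0 of 14129 genes in all (0%). The same was true of limma-voom, which called 0 members and 0% of genes, and the DESeq2 Wald test called 0 members against 0.27% of genes. At an unadjusted p under 0.05, edgeR gave 2 members, Il6 and Osmr, both lower, against 4.54% of all genes lower at that level and 7.9% in either direction. That number varied as libraries were left out, not always in step with the number over all genes. It was 0 without control replicate 3 (746 of 14553 genes in all), 1 (Il6) without 2'-FL replicate 2 (738 of 14477) and 5 without 2'-FL replicate 1 (1481 of 14442). Without 2'-FL replicate 3 it was 2 (931 of 14532), without control replicate 1 it was 3 (1025 of 14533) and without control replicate 2 it was 2 (1324 of 14383). The median log2 fold change was -0.17 over the 9 tested members, of which 7 lay below 0, and -0.01 over all genes tested. Il11 was too low to be tested.

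Il6 is shown first among the ligands, and its promoter with it, since it is the 1 member whose groups separated. IL-6 is a secreted cytokine whose gene is a known target of NF-kB, C/EBP, AP-1 and CREB factors. The bases below lie directly before the start of Il6, on the plus strand at chr5:30012864-30013113 (RefSeq, GRCm38.p6). Capitals mark every match, on either strand, to 5 motifs written with N for any base: AP-1 as TGANTCA, part of a cAMP response element as TGACGT, C/EBP as TTGCNNAA, the core of an NF-kB site as GGANTTTCC and STAT as TTCNNNGAA. No match overlapped another.

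Il6: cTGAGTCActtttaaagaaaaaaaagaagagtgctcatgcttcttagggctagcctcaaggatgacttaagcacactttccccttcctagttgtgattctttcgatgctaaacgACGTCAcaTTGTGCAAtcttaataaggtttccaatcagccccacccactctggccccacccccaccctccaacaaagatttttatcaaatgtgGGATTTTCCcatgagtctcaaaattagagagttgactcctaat

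From left to right the capitals are an AP-1 match, part of a cAMP response element on the opposite strand, a C/EBP match on the opposite strand and, starting 43 bases before the start site, an NF-kB core. Windows of the same kind, 300 bases long, were available for 9 of the 10 members, in 11 windows, and for 32851 promoters in all. The NF-kB core occurred in 1.25% of those promoters and among the members in Il6 only. AP-1 occurred in 7.81% of promoters and in 4 of the 11 member windows, those of Il6, Il11, Lif and Osmr. For Il11 the match was in the second of its windows only. For Osmr it lay just after the start site, within the last 50 bases of the window. C/EBP occurred in 10.8% and the cAMP response element part in 7.51% of promoters, among the members again in Il6 only. The STAT motif occurred in 8.3% of promoters and, among the members, in Socs3. A match is a description of letters and was not tested for binding.

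Il6 (ENSMUSG00000025746) lies on the plus strand at chr5:30013114-30019981 (GRCm38, as for all gene positions here). It had 48, 48 and 33 counts in 2'-FL replicates 1 to 3 and 51, 69 and 85 counts in control replicates 1 to 3. Scaled to library size, these were 2.05, 1.94 and 1.65 CPM in treated libraries, against 2.58, 3.23 and 4.21 CPM in untreated ones. Every 2'-FL library lay below every control, with control replicate 1 nearest to them and control replicate 3 farthest away. Of all tested genes, 6.74% lay the other way, with every 2'-FL library above every control. The means were 1.88 ± 0.207 and 3.34 ± 0.823 CPM (SD, n = 3 each). The log2 fold change was -0.83 ± 0.27 (SE, 95% interval -1.41 to -0.24), which is a fold of 0.564. In edgeR the adjusted p was 0.496, so Il6 did not pass over all genes. Summed markers of other cell types also separated the groups. The smooth muscle sum was 220.5 to 471 CPM with 2'-FL, against at most 199 CPM in a control. The fibroblast sum was at least 7142 CPM with 2'-FL, against at most 6952 CPM in a control. Most of it was Col1a1 and Col3a1. Of the other fibroblast markers, Pdgfra, Pdgfrb and Dcn averaged lower with 2'-FL, Col1a2 and Thy1 averaged higher, and Lum had no count. The part of these markers in the Il6 difference was not tested. At these counts, sampling alone gives an exact Poisson 95% interval of 1.13 to 2.32 CPM for 2'-FL replicate 3 and of 3.36 to 5.21 CPM for control replicate 3, and the intervals of 2'-FL replicate 1 (1.51 to 2.72 CPM) and control replicate 1 (1.92 to 3.39 CPM) overlap. Such intervals cover counting error only.

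**Figure D1:**
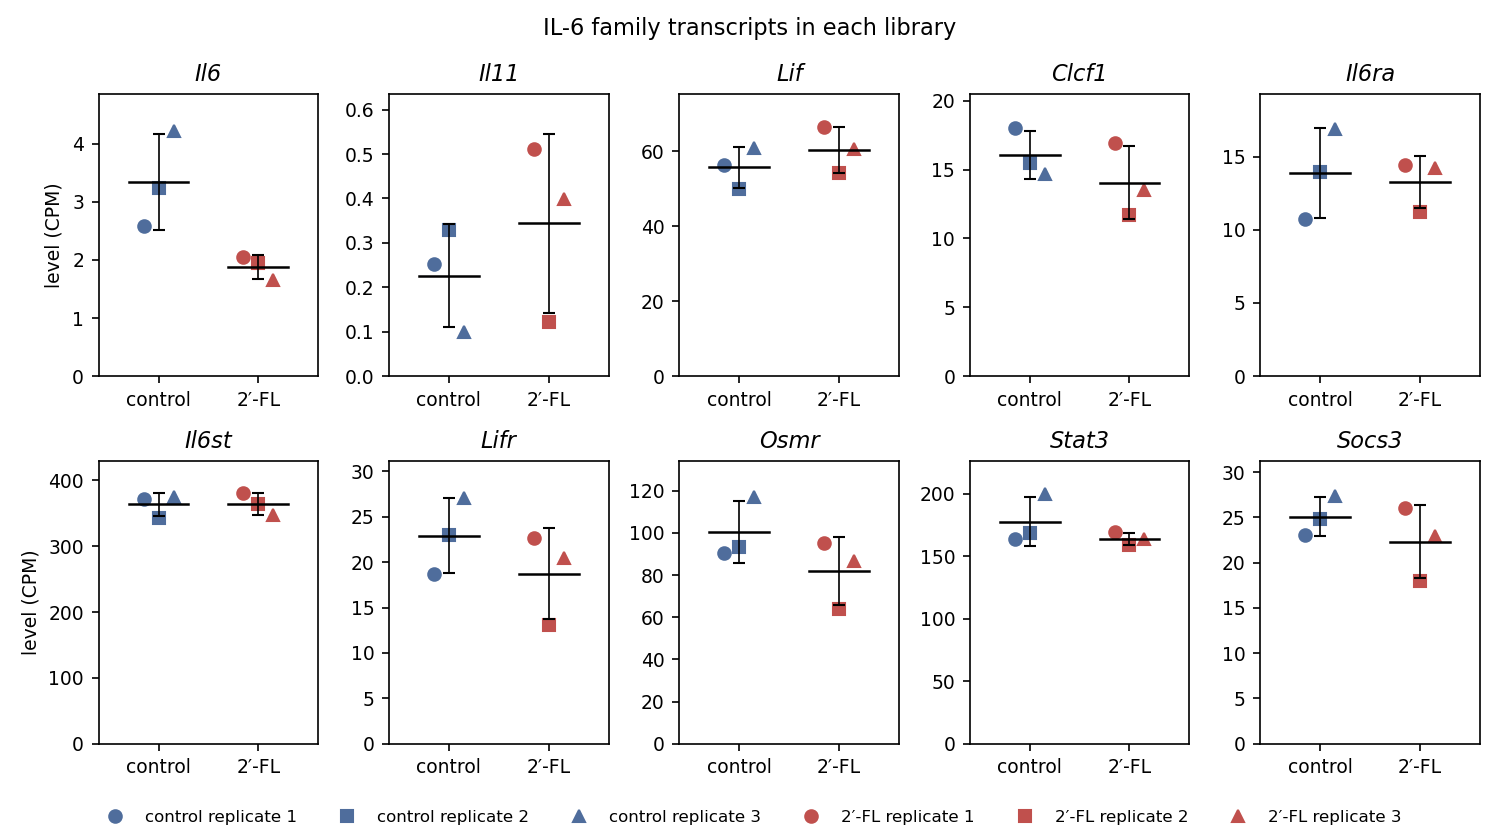
Level of each IL-6 family transcript in CPM (vertical axes from 0, 1 scale per gene) in the 3 control and 3 2'-FL libraries. Points are libraries, horizontal lines group means and bars SD; the groups do not overlap for Il6, between 1.65 and 2.05 CPM with 2'-FL and between 2.58 and 4.21 CPM in controls, and overlap for the other 9 genes.

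Lif (chr11:4257557-4272514, plus strand) was the most abundant ligand of the 4. LIF, the leukaemia inhibitory factor, signals through LIFR and gp130. The letters around the AP-1 match in its promoter (plus strand, chr11:4257329-4257358, RefSeq GRCm38.p6, match in capitals) are shown because Lif and Il6 share this motif and differed in their values.

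Lif: ccagtcagctgTGACTCAggccatagtggc

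Lif stood at 66.4, 54.2 and 60.6 CPM in 2'-FL replicates 1 to 3 and at 56.4, 49.9 and 60.8 CPM in control replicates 1 to 3. The groups overlapped, with 2'-FL replicate 1 highest and control replicate 2 lowest. The log2 fold change was 0.12 ± 0.09 (SE, 95% interval -0.08 to 0.31, edgeR adjusted p = 0.791). That interval includes 0.

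The level of Lif relative to Il6 did not overlap between the groups, a comparison that 3 against 3 libraries cannot bring under a p of 0.05. As CPM per kilobase of gene length (RPKM), Lif exceeded Il6 by 18.1, 15.6 and 20.5 times in 2'-FL replicates 1 to 3 and by 12.2, 8.62 and 8.06 times in control replicates 1 to 3. All 3 ratios with 2'-FL lay above the controls, at 18.1 ± 2.45 against 9.63 ± 2.26 (SD over 3 libraries). Il6 alone already separated the groups and Lif did not, so this ratio largely restates the Il6 values. A two-sided exact permutation gave p = 0.1, the smallest it allows, and an adjusted p of 0.4 over the 4 ratios computed. The 3 other ratios overlapped between the groups, namely Osmr over Lifr, Il6st over Il6ra and Osmr over Il6st (exact two-sided permutation p = 0.9, 0.9 and 0.3).

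**Figure D2:**
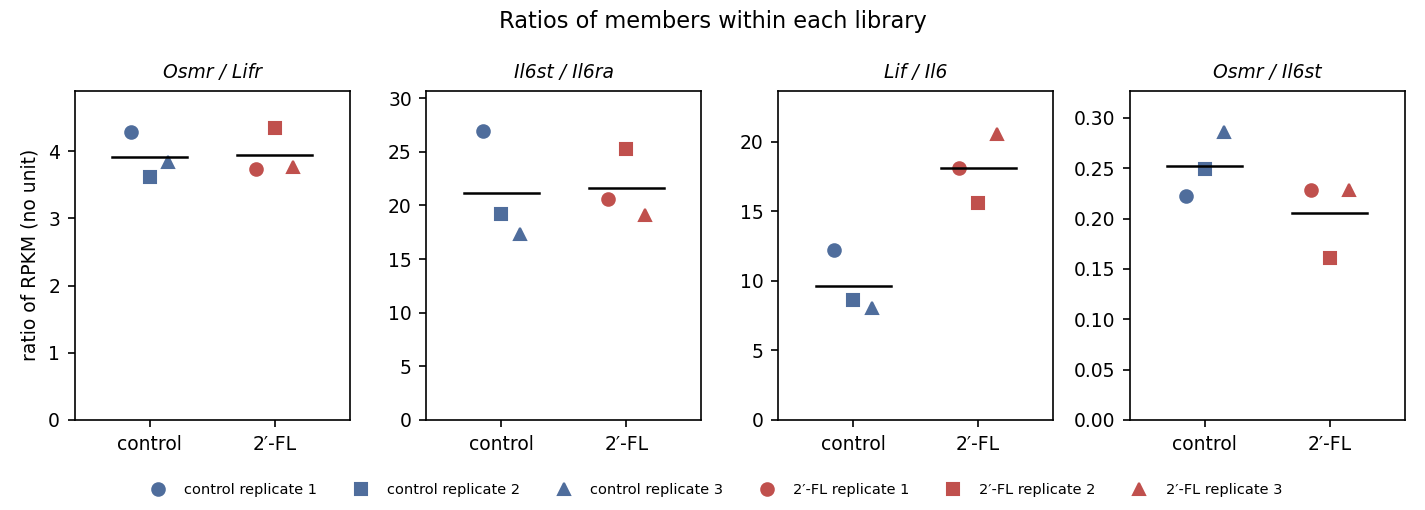
Ratios of RPKM between pairs of IL-6 family transcripts within each library (vertical axes from 0, no unit), for control and 2'-FL libraries. Points are libraries and lines group means; Lif over Il6 lies between 15.6 and 20.5 with 2'-FL and between 8.06 and 12.2 in controls, and the other 3 ratios overlap.

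Clcf1 (chr19:4214238-4223490, plus strand) encodes the cardiotrophin-like cytokine that signals through the CNTF receptor, LIFR and gp130. It stood at 17.0, 11.7 and 13.5 CPM in treated libraries, against 18.0, 15.5 and 14.7 CPM in untreated ones. The groups overlapped, with 2'-FL replicate 2 lowest and control replicate 1 highest, and the log2 fold change was -0.19 ± 0.14 (SE, edgeR adjusted p = 0.777). With single libraries left out it ran from -0.35 (without 2'-FL replicate 1) to -0.07 (without 2'-FL replicate 2), and without control replicate 1 it was -0.10. Clcf1 shares 311 exon bases with a gene of the annotation on its strand that has no row in the count files. Il11 (chr7:4772373-4782857, minus strand) encodes a cytokine that binds IL11RA and gp130. It had 12, 3 and 8 counts with 2'-FL and 5, 7 and 2 counts in controls, or 37 counts in all. That is between 0.121 and 0.512 CPM with 2'-FL and between 0.099 and 0.328 CPM in controls, and a difference was not detectable at this depth.

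Among the receptor chains, Il6st (chr13:112464070-112510086, plus strand) was the most abundant and differed least between the groups. It stood at 382, 364 and 348 CPM in treated libraries, against 372, 343 and 376 CPM in untreated ones, fully overlapping. Its log2 fold change was 0.00 ± 0.07 (SE, 95% interval -0.14 to 0.15, edgeR adjusted p = 0.994). The alpha chain of the IL-6 receptor, Il6ra (chr3:89864059-89913196, minus strand), stood at 14.4, 11.2 and 14.2 CPM in treated libraries, against 10.8, 13.9 and 16.9 CPM in untreated ones. Its lowest and its highest library were both controls, and the log2 fold change was -0.06 ± 0.16 (SE, 95% interval -0.40 to 0.27, edgeR adjusted p = 0.949). Omitting control replicate 3 gave 0.11 and omitting 2'-FL replicate 2 gave 0.04, whereas omitting control replicate 1 gave -0.21, 2'-FL replicate 1 -0.13 and 2'-FL replicate 3 -0.11. Il6ra shares 242 exon bases with an antisense gene that has 9 counts in all.

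Osmr (chr15:6813577-6874969, minus strand) and Lifr (chr15:7090614-7197489, plus strand) encode the partner chains of gp130 for oncostatin M and LIF. Both averaged lower with 2'-FL, and in both the lowest library was 2'-FL replicate 2 and the highest control replicate 3. Osmr stood at 95.1, 64.0 and 86.5 CPM in treated libraries, against 90.3, 93.4 and 117 CPM in untreated ones, so that 2'-FL replicate 1 lay above 2 of the 3 controls. Its log2 fold change was -0.29 ± 0.12 (SE, 95% interval -0.56 to -0.03, edgeR adjusted p = 0.587). Leaving out 2'-FL replicate 2 gave -0.14, leaving out control replicate 3 gave -0.16, and -0.02 was left with both gone. Leaving out any other library gave -0.33 to -0.42. Lifr stood at 22.6, 13.1 and 20.5 CPM in treated libraries, against 18.7, 23.0 and 27.1 CPM in untreated ones, which overlap. Its log2 fold change was -0.30 ± 0.17 (SE, edgeR adjusted p = 0.717), and the same omissions gave -0.09, -0.15 and 0.05. It was larger, at -0.46, without 2'-FL replicate 1, and -0.42 without control replicate 1. The pair kept a narrow ratio across libraries: Osmr over Lifr on the RPKM scale stayed between 3.62 and 4.34 in all 6 libraries, while Lifr itself ranged from 1.22 to 2.52 RPKM.

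Stat3 (chr11:100885098-100939540, minus strand) encodes the transcription factor through which the family acts. It stood at 169, 159 and 164 CPM in treated libraries, against 164, 169 and 199.9 CPM in untreated ones. Control replicate 3 stood above the other 5 libraries, which lay between 159 and 169 CPM. The log2 fold change was -0.11 ± 0.08 (SE, 95% interval -0.28 to 0.05, edgeR adjusted p = 0.753), and without control replicate 3 it was -0.01. Stat3 shares 72 exon bases with Stat5a on the opposite strand, and no source used here says whether counting used strand.

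Socs3 (chr11:117966079-117970047, minus strand) encodes the inhibitor that STAT3 induces, so its STAT match is shown. The RefSeq start used lies 681 bases inside the gene's end in the files, and the letters around the match, on the minus strand at chr11:117969501-117969530 (RefSeq, GRCm38.p6, match in capitals), lie before that start.

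Socs3: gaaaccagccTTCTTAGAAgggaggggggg

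Socs3 stood at 26.0, 18.0 and 22.9 CPM in treated libraries, against 23.0, 24.8 and 27.4 CPM in untreated ones. The groups overlapped, with 2'-FL replicate 2 lowest and control replicate 3 highest. The log2 fold change was -0.17 ± 0.12 (SE, 95% interval -0.43 to 0.09, edgeR adjusted p = 0.775), and the omission of 2'-FL replicate 2 or of control replicate 3 gave -0.03 or -0.10. Omitting 2'-FL replicate 1 gave -0.30 and control replicate 1 gave -0.23.

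Across libraries, then, 4 of the 9 tested members, Osmr, Lifr, Stat3 and Socs3, were lowest in 2'-FL replicate 2 and highest in control replicate 3. Of all tested genes, 6.16% had that pattern, which was picked out after the values were seen and is given as a description. Control replicate 3 was the highest library for 6 of the 9 members, against 17% of tested genes, and 2'-FL replicate 2 the lowest for 5 of the 9, against 24.4%. The summed smooth muscle markers ran the other way, at 471 CPM in 2'-FL replicate 2 and 139 CPM in control replicate 3, against 220.5 and 365 CPM in the other two 2'-FL libraries and 192 and 199 CPM in the other two controls. Most of that sum was Acta2, with Cnn1 next and 1 of the 5 markers, Myh11, under 1 CPM. The fibroblast sum was also highest in 2'-FL replicate 2, at 8313 CPM. It was 7142 and 7331 CPM in 2'-FL replicates 1 and 3 and 6676 to 6952 CPM in controls, with Lum at 0. Most of it was Col1a1 and Col3a1, whereas Pdgfra and Pdgfrb were lowest in 2'-FL replicate 2, at 9.93 and 14.5 CPM. The epithelial sum was 1195 CPM in 2'-FL replicate 2 and 845 CPM, its lowest, in control replicate 3. That sum was nearly all keratins, and Epcam and Cdh1, both under 1 CPM, were lowest in 2'-FL replicate 2. The part of these markers in the pattern was not tested. With both libraries left out, the log2 fold changes of Osmr, Lifr, Stat3 and Socs3 were -0.02, 0.05, 0.00 and 0.03. That of Il6 was -0.65 (edgeR unadjusted p = 0.0828), and no member passed edgeR's adjusted p. The omitted libraries hold the extreme values of those 4 genes, so their shrinkage follows from the choice. The lowest library of Il6 was 2'-FL replicate 3, so the omission cannot rank Il6 against them.

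**Figure D3:**
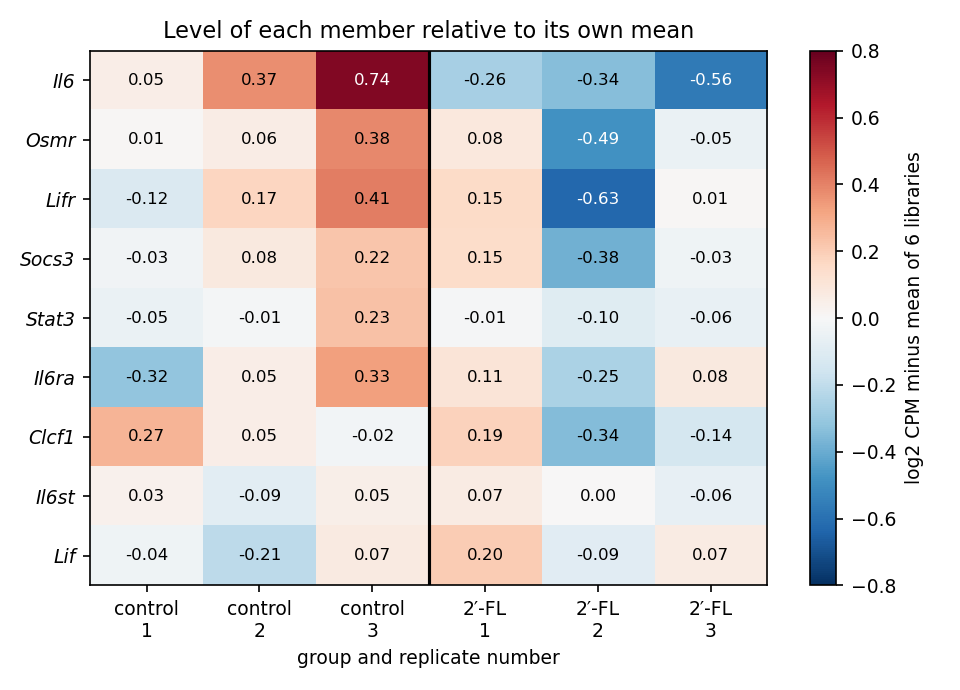
Log2 CPM of each tested IL-6 family transcript minus its own mean over the 6 libraries (colour and printed value), by group and replicate number. Il6 is below its mean in all 3 2'-FL libraries and, at 0.74, deviates most of the members in control replicate 3, where Lifr, Osmr, Il6ra, Stat3 and Socs3 are also above theirs (0.22 to 0.41). Within 2'-FL replicate 2, the members farthest below their own means are Lifr, Osmr, Socs3, Clcf1 and Il6 (-0.63 to -0.34). Il6 itself is lowest in 2'-FL replicate 3 (-0.56).

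Levels of different genes were compared per length, as RPKM. The order over the 6 libraries was Il6st at 32.8 ± 1.41, Stat3 at 17.9 ± 1.55, Lif at 13.3 ± 1.33, Socs3 at 8.19 ± 1.14, Osmr at 7.52 ± 1.41, Clcf1 at 4.05 ± 0.616, Lifr at 1.93 ± 0.437, Il6ra at 1.57 ± 0.262, Il6 at 1.07 ± 0.397 and Il11 at 0.142 ± 0.0799 RPKM (SD, n = 6). Neighbours in this order whose libraries overlapped were Socs3 with Osmr, Lifr with Il6ra, and Il6ra with Il6. The shared chain Il6st lay above 87.7% of tested genes on this scale, and Il6 above 20.2%. Per length, gp130 transcripts exceeded those of the IL-6 alpha chain by 17.3 to 26.9 times in the 6 libraries.

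**Figure D4:**
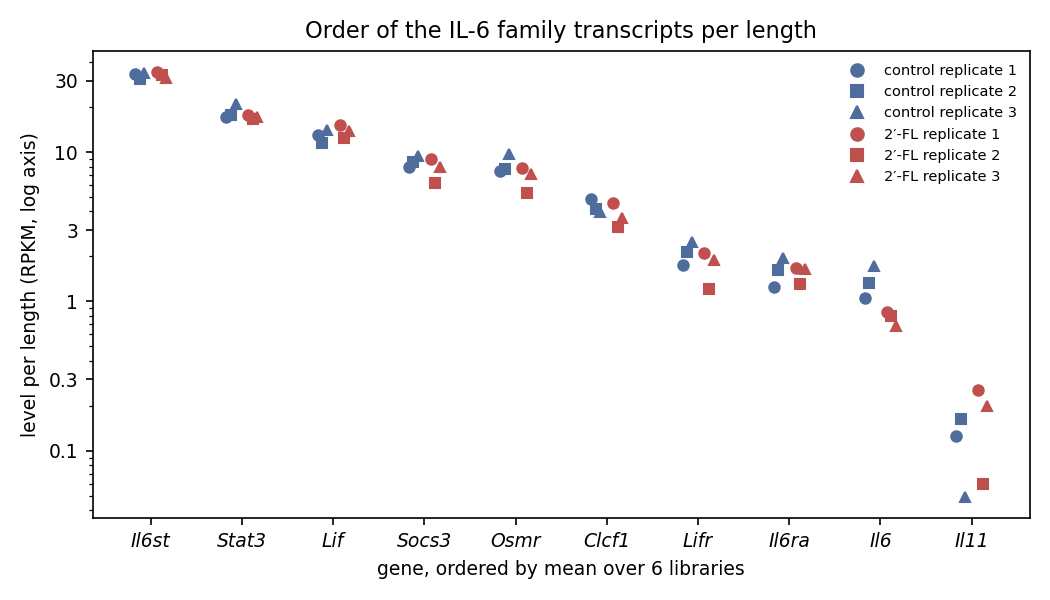
Level per length (RPKM, log axis) of the 10 IL-6 family transcripts in each library, ordered by mean. Il6st is highest at 32.8 RPKM and Il11 lowest at 0.142 RPKM, and the neighbours Lifr, Il6ra and Il6 overlap between libraries.

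The rest of the family was sparse on the ligand side. Of 8 other ligands and soluble partners, 2 were abundant enough to be tested, cardiotrophin 1 (Ctf1) at 6.26 ± 0.821 RPKM and the ciliary neurotrophic factor Cntf at 0.866 ± 0.358 RPKM (SD, n = 6). Oncostatin M itself, Osm, had 2 counts in the 6 libraries together, and Il27 had none, which allows up to 0.0231 CPM. Of 5 other receptor chains, 2 were tested, Il11ra1, the alpha chain for IL-11, at 9.24 ± 0.685 RPKM and Cntfr at 0.446 ± 0.123 RPKM (SD, n = 6). Thus the transcript of Il11ra1 was well counted in libraries that held few Il11 counts, and Osmr in libraries that held hardly any Osm counts. Log2 fold changes of the 4 tested genes lay between -0.17 and -0.01, and 0 passed the test.

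No gene on the lists of signal carriers and inhibitors passed the test. Of 11 receptor-proximal genes, 6 had log2 fold changes above 0 and 5 below, between -0.10 and 0.08, with the kinase Jak1 at 0.03 ± 0.07 and the phosphatase Ptpn11, which couples gp130 to the Ras pathway, at 0.03 ± 0.07 (SE). Of 9 tested negative regulators, 5 lay above 0 and 4 below, with the phosphatases Ptpn1 and Ptpn2 at 0.01 ± 0.06 and 0.08 ± 0.08 (SE). Values on that list ran from -0.34 for Cish (95% interval -1.18 to 0.50) to 0.13. Socs1, at -0.18 ± 0.14 (SE), had groups that did not overlap, with 2'-FL lower, as in 6.31% of all tested genes. Cish and Socs1 are of the SOCS family and are named after their values were seen. So are the receptor-proximal gene Gab1 and the shedding gene Rhbdf2, whose groups did not overlap either. In both, 2'-FL was higher, as in 6.74% of all tested genes. The sheddases Adam10 and Adam17, which can release soluble IL-6 receptor, had 0.11 ± 0.07 and 0.04 ± 0.06 (SE), and 3 of the 4 shedding genes lay above 0. Medians of these 3 lists were 0.00, 0.01 and 0.06, against -0.01 over all genes, and 0 of their 24 tested genes passed the test or reached an unadjusted p under 0.05.

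Of 22 known STAT3 targets 17 were tested, with a median log2 fold change of -0.09; 12 lay below 0, 5 above, and 0 passed the test. The 2 with the highest CPM, Mcl1, a survival factor, and Ccnd1, cyclin D1, had log2 fold changes of 0.04 ± 0.06 and 0.07 ± 0.09 (SE). Per length the highest was the protease inhibitor Timp1, at 154 RPKM and a log2 fold change of -0.18 ± 0.12 (SE), above Mcl1 at 97.5 RPKM. The target Birc5, at 0.13 ± 0.07 (SE), had groups that did not overlap, with 2'-FL higher, and is named after its values were seen. Of all tested genes, 6.74% separated in this way. At an unadjusted p under 0.05 the list held 2 genes, both lower, the transcription factor Cebpd at -0.36 ± 0.13 and lipocalin 2, Lcn2, at -0.55 ± 0.22 (SE; edgeR adjusted p = 0.503 and 0.577), named here after their values were seen. Over all genes, 4.54% were lower at that level. Both were lowest in 2'-FL replicate 2 and highest in control replicate 3, as were Saa3, Junb and Pim1, making 5 of the 17, against 6.16% of all tested genes. That pattern was taken from the members after their values were seen. It also held for 2 of 11 factors of Il6 transcription and 2 of 10 of Il6 mRNA decay. Of the other lists, it held for 1 of 11 receptor-proximal genes, 0 of 9 negative regulators and 0 of 4 shedding genes. Among 11 factors that act on Il6 transcription, 8 lay below 0 and 3 above, with a median of -0.08. The NF-kB subunit Rela had 0.03 ± 0.07, Jun 0.09 ± 0.07 (SE), and Cebpd, which is also on this list, was the 1 gene at an unadjusted p under 0.05. Among 10 factors that control decay or stability of Il6 mRNA, the median was -0.04, and 0 passed the test. Hnrnpd had 0.00 ± 0.06, Khsrp 0.03 ± 0.06 and Elavl1, named after its values were seen, 0.11 ± 0.06 (SE). In Khsrp and Elavl1 the groups did not overlap, with 2'-FL higher, as in 6.74% of all tested genes.

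**Figure D5:**
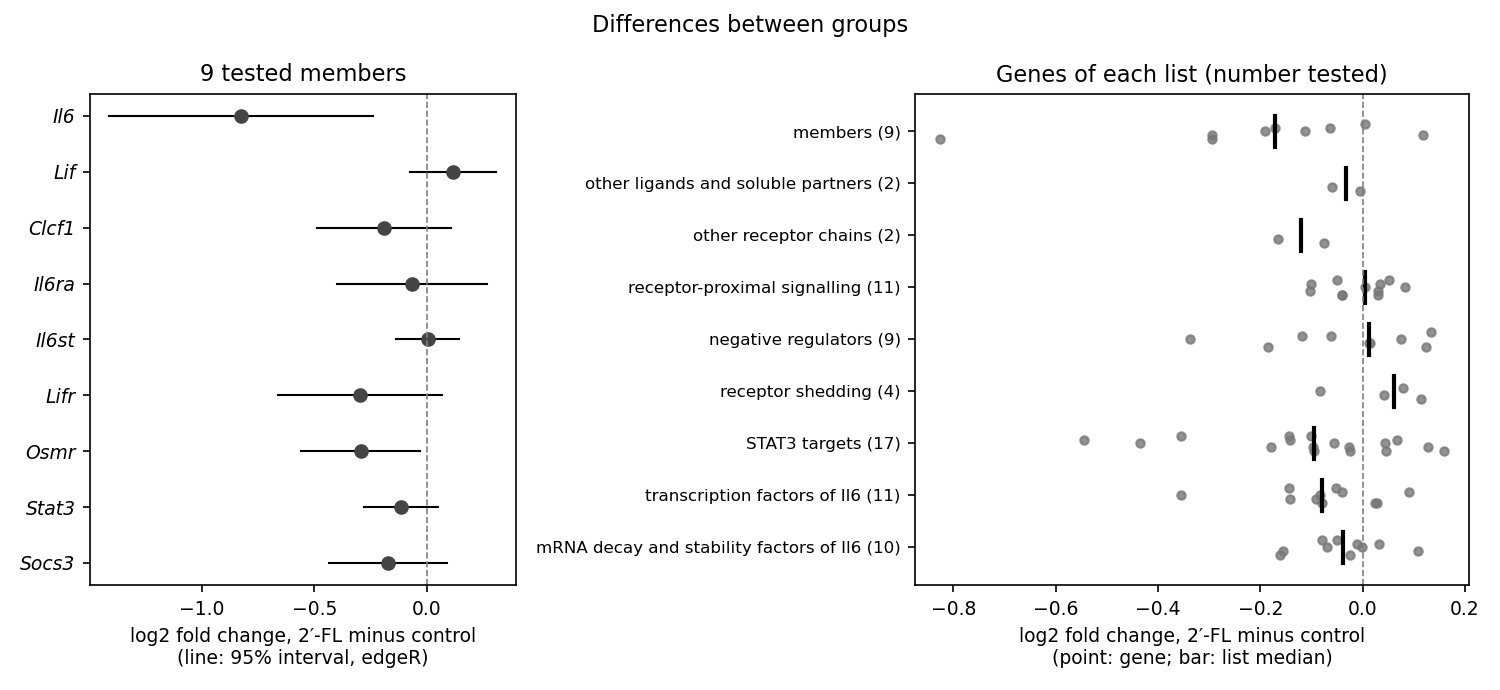
Log2 fold changes, 2'-FL minus control, for the 9 tested IL-6 family members with 95% intervals (left) and for the tested genes of each pathway list (right; points are genes, bars list medians, numbers in brackets genes tested). The intervals of Il6 (-1.41 to -0.24) and Osmr (-0.56 to -0.03) lie below 0, and list medians lie between -0.17 and 0.06.

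The genes whose profile over the 6 libraries was most like that of Il6, by the root mean square difference of log2 CPM around each gene's mean, were Ifit1bl1 (0.16), Nr4a3 (0.17), Slc25a47 (0.17), Fsbp (0.18) and Clcn1 (0.18). All 5 are lowly expressed, between 1.04 and 5.95 CPM on average over 6 libraries, so counting error is part of this likeness. Nr4a3, an orphan nuclear receptor, had a mean of 0.878 ± 0.165 CPM after 2'-FL, against 1.58 ± 0.275 CPM without it (SD, n = 3 each). Its groups did not overlap, as for Slc25a47 and Fsbp, with 2'-FL lower, against 6.31% of all tested genes. The 5 genes were picked for likeness to Il6, whose groups separated, so their separation follows largely from the choice and is description only. The groups overlapped for Ifit1bl1, an IFIT family gene, and for Clcn1, and none of the 5 passed the test.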

How the data were processed

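The authors deposited 1 file of raw read counts per gene for each of the 6 libraries, with no normalization, and each library was assigned from its title. Per the labels' protocols, total RNA from a Qiagen RNeasy kit went into NEBNext Ultra II libraries. Tools named in the submitters' processing notes are Bowtie2 (given there as 2.7.3a), bcl2fastq and FastQC 0.11.9, and the build named is GRCh38; the files hold mouse genes, and 98.33% of those found in the GENCODE annotation of GRCm38 have the same start and end there. No source used here names the counting program. The gene lengths in the files equal the summed exons of that annotation for 98% of genes and served for RPKM.

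In R 4.3.3 with edgeR 4.0.16, genes were filtered by filterByExpr (minimum count 10), scaled by TMM and compared across all genes by the quasi-likelihood F-test, 2'-FL minus control, with Benjamini-Hochberg adjustment over 14129 genes and a threshold of 0.05. SEs and 95% intervals follow from the F statistic and its degrees of freedom. Log2 CPM used a prior count of 2. Ratios were compared by exact permutation. The fit was tested on simulated counts. DESeq2 1.42.0 and limma-voom (limma 3.58.1) were alternatives, with other scalings, filters, robust estimation, a replicate block and libraries left out. Nothing in the labels says that replicates were separate cultures, so p-values measure only how far these samples spread, in part perhaps technically. Per-gene chi-square statistics between libraries averaged 5.26 to 14.8 within groups, so no library was a copy of another.

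Members, lists, motifs and ratios were chosen with earlier results of these data known. Named genes are the 10 members, the 2 most abundant tested genes of each pathway list, the 2 most abundant markers of each cell type list, any listed gene called, and the 5 genes most like Il6; abundance here is mean CPM. Other genes named were chosen after their values were seen. They are defining markers at or near 0, ligands with few counts, and the fibroblast markers Col1a2, Dcn, Pdgfra, Pdgfrb and Thy1. They also include the pathway genes Cish, Socs1, Gab1, Rhbdf2, Timp1, Birc5, Lcn2, Cebpd, Saa3, Junb, Pim1 and Elavl1. Of the marker lists, that for T and B cells is given by its sum, and 1 list is not reported here.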

Additional observations from a re-analysis of the deposited data

How the results depend on the processing

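With all 17 alternatives, the log2 fold change of Il6 stayed below 0 (-1.0001 to -0.62) and that of Lif above 0 (0.04 to 0.26), with adjusted p of at least 0.221 and at least 0.776. Osmr stayed below 0 (-0.42 to -0.02). With robust estimation the edgeR unadjusted p of Osmr was 0.140, against 0.0321 in the main fit, which left Il6 as the 1 member under 0.05. No filter on low counts was the 1 setting that called any member or listed gene: 1 member, Osmr (adjusted p = 0.0425), and 3 listed genes, Saa3, Cebpd and Lcn2, against 0 and 0 with the filter; 158 of 26207 genes were called in that setting, and the cause was not tested. Counts of members called were 0 to 0 with each library left out, and so were those of listed genes. Signs of small differences turned, none of them past the test. Il6st was at -0.0052 with total counts only, -0.030 without 2'-FL replicate 1 and -0.036 without control replicate 2. With single libraries left out, Il6st lay between -0.036 and 0.039 and Il6ra between -0.21 and 0.108. Il6ra was at 0.045 without 2'-FL replicate 2 and 0.108 without control replicate 3. Leaving out 2'-FL replicate 2 and control replicate 3 together, chosen after the data were seen, gave 0.212 for Il6ra, 0.048 for Lifr, 0.034 for Socs3 and 0.00095 for Stat3. Leaving out 2'-FL replicate 2 and control replicate 1, at the extremes of the principal components and also added after the data were seen, gave 0.018 for Clcf1. With 1 library left out, members at an unadjusted p under 0.05 numbered from 0 without control replicate 3 to 5 without 2'-FL replicate 1.

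The replicate block gave -0.80 for Il6 and called 0 members and 0 listed genes. Same-numbered libraries did not deviate together (correlations of -0.12, -0.068 and -0.051). The numbers thus gave no sign of pairing, which 3 libraries per group cannot exclude. Depth limits Il11 and Il6 most: 1 count equals 0.0404 to 0.0505 CPM, and 37 and 334 counts were seen in all.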
